A study of Mus musculus with 151 samples.

Results

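The 10 genes described here were Kcnk18, Tox3, Slc14a1, Cdc5l, Tmem181c-ps, Rassf4, Arid5b, Khdc1c, Hsd17b13 and AA465934. They were chosen by their counts in single oocytes of 39-week-old mice, so their values there are a description and were not tested. For most of them these counts were near 0 in one group and clear in the other. Khdc1c and Arid5b were far lower in one group on average but not near 0 in all of its oocytes. All 10 had a row among the 35976 gene names of each of the 7 count tables. The question was whether the same all-or-none levels appeared in other oocytes and tissues, and whether there they followed the way the mice were conceived.

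Natural offspring came from CF-1 females mated in their natural cycle with B6/SJL males, without embryo transfer. IVF offspring came from superovulated CF-1 females whose eggs were fertilized with B6/SJL sperm, cultured to blastocysts and transferred to CF-1 recipients. Pups of both adult groups were delivered by cesarean section and fostered to CF-1 dams. CF-1 is an outbred stock, so females of one group are not genetically identical, and no genotype was measured here. The fetal ovaries, taken at E18.5, came from 4 Natural and 6 IVF animals. The adult ovaries numbered 4 against 5 at 12 weeks and 5 against 5 at 39 weeks, and there were 4 against 5 pools of primordial germ cells (PGCs) of E13.5. One part of the methods places the collection of IVF fetuses a day later than that of Natural fetuses. Single oocytes from superovulated females were profiled at 12 weeks (36 and 40) and 39 weeks (9 and 10), and pools of 100 cumulus cells at 12 weeks (5 and 5). The first 2 fields of the 12-week oocyte names gave 10 collection sets of 5 to 8 oocytes, 5 sets a group, whereas the 39-week names gave no set and no donor.

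An oocyte accumulates its RNA while it grows and is nearly silent in transcription when it is ovulated, so a single-oocyte library reads mostly a stored pool that one animal's oocytes built up over the same weeks. Whether a gene contributes to that pool depends in part on its own regulatory sequence and on the surrounding chromatin. Neither was measured in these animals. A whole ovary mixes oocytes with far more numerous granulosa, theca, luteal, stromal and vascular cells, so a gene of the oocyte is diluted there. In such bulk samples fewer cells of a type and less RNA per cell cannot be told apart.

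The 10 genes belong to unrelated families. Kcnk18 encodes a two-pore-domain potassium channel, and Slc14a1 encodes the urea transporter of red cells and vessels. Tox3 encodes a nuclear protein with an HMG box, and Arid5b a DNA-binding protein of the AT-rich interaction domain family. Cdc5l encodes a core protein of the Prp19 complex of the spliceosome. Rassf4 encodes a Ras association domain protein, Khdc1c a KH-domain protein of a family active in oocytes and early embryos, and Hsd17b13 a lipid droplet protein of the hydroxysteroid dehydrogenase family. Tmem181c-ps is annotated as an unprocessed pseudogene, and AA465934 as a noncoding processed transcript.

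Positions were those of GENCODE vM21 on GRCm38, the build that mm10 names, and that of Slc14a1 is not printed. The genes on chromosome 17 were Tmem181c-ps (chr17:6613753-6639790, minus strand) and Cdc5l (chr17:45391884-45433737, minus strand). The others were Khdc1c (chr1:21368331-21370845, plus), Hsd17b13 (chr5:103955440-103977410, minus), Rassf4 (chr6:116633008-116673952, minus), Tox3 (chr8:90247040-90348343, minus), Arid5b (chr10:68092520-68278740, minus), AA465934 (chr11:83291699-83294632, plus) and Kcnk18 (chr19:59219214-59237374, plus). B230354K17Rik overlaps Cdc5l, and Depp1 overlaps Rassf4, on the opposite strand. The counting of strand is not given in the sources used here, so reads of such partners cannot be told apart. Snord7 lies within AA465934 on the same strand.

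Reads of Khdc1c and Tmem181c-ps can be shared with near copies, and their sequences are shown for that reason. The second coding exon of Khdc1c (chr1:21368892-21369074), of Khdc1a (chr1:21350258-21350440) and of Khdc1b (chr1:21384175-21384357), all on the plus strand of GRCm38, read as follows, 5′ to 3′, with capitals at the 7 of 183 positions that differ among the 3 genes.
Khdc1c: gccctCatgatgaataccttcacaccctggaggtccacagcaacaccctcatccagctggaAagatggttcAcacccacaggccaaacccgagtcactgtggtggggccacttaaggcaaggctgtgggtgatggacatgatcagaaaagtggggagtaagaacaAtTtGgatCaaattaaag
Khdc1a: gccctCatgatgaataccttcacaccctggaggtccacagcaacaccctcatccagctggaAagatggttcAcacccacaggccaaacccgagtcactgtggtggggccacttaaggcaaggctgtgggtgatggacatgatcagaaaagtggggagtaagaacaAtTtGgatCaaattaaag
Khdc1b: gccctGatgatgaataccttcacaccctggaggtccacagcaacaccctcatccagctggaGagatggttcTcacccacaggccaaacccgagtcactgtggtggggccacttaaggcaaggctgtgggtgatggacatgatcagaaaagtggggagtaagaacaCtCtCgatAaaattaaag
Khdc1c and Khdc1a were identical over this exon, and Khdc1c and Khdc1b shared 96.2% of its bases. Over its whole transcript Khdc1c shared 43.1% of its 50-base words with transcripts of other genes.

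For Tmem181c-ps 72.3% of the 50-base words occurred in transcripts of other genes, and 68.8% occurred in Tmem181b-ps. Exon 9 of Tmem181c-ps (chr17:6620546-6620676, minus strand) had the same 131 bases as exon 9 of Tmem181b-ps (chr17:6448783-6448913, minus strand) and of Tmem181a (chr17:6297852-6297982, plus strand), with no position to mark.
Tmem181c-ps: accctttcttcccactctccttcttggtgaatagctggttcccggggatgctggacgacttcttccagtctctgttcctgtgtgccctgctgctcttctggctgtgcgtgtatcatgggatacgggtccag
Cdc5l shared 34.8% of its words, most often with Gm9045. The shares of the remaining 7 genes were at most 0.510%, so few of their reads could be split between copies.

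Total counts per 39-week oocyte ran from 5959480 to 18374296 in Natural and from 2820748 to 31126357 in IVF. CPM values are counts scaled to the library total, with the TMM correction for library composition. A count of 0 still allows up to 3 counts, a limit given here on raw library totals without that correction. It was 0.163 to 0.503 CPM in the Natural oocytes and 0.0964 to 1.06 CPM in the IVF oocytes, and it covers counting error only.

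Of the 10 genes, 6 were high in the IVF oocytes. Kcnk18 had 0 counts in 8 of 9 Natural oocytes and 2 counts in the other, against 6.63 to 44.7 CPM in the 10 IVF oocytes (median 17.1). Tox3 reached at most 2 counts in a Natural oocyte and lay between 11.4 and 36.0 CPM in IVF (median 17.3). For both channel and HMG-box gene, each IVF oocyte lay above each Natural oocyte.

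Slc14a1 ranged from 0 to 0.703 CPM in Natural (median 0) and from 4.16 to 20.7 CPM in IVF (median 15.1). Khdc1c was not absent in Natural oocytes, with 2.44 to 28.8 CPM (median 15.7), and lay at 97.1 to 372 CPM in IVF (median 212). The summed CPM of 6 erythroid markers, of interest because red cells carry the urea transporter, was 114 to 22336 in Natural and 2.91 to 31057 in IVF, and its part in the Slc14a1 values was not tested. The groups did not overlap for Slc14a1 or Khdc1c, and the mean of Khdc1c was 15.9 times as high in IVF.

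Arid5b and AA465934 were less clean. Arid5b ran from 0 to 25.0 CPM in Natural (median 2.14) and from 4.93 to 143 CPM in IVF (median 93.9), and the lowest IVF oocyte, replicate 1 with 78 counts, lay inside the Natural range. AA465934 ran from 0 to 1.17 CPM in Natural (median 0) and from 0.595 to 11.6 CPM in IVF (median 5.03). Its lowest IVF value came from replicate 7, which held the fewest counts of all 19 oocytes.

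The other 4 genes were high in the Natural oocytes. Cdc5l lay between 30.3 and 45.1 CPM there (median 40.0) and between 0 and 2.97 CPM in IVF (median 0.129), with 0 counts in 5 of 10 IVF oocytes. Its Natural level was narrow, with an SD of 4.59 around a mean of 39.4 CPM (n = 9). Relative to its mean, no other member varied so little within its high group.

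Tmem181c-ps ran from 1.60 to 7.19 CPM in Natural (median 5.61) and from 0 to 0.366 CPM in IVF (median 0). Hsd17b13 ran from 3.42 to 10.5 CPM in Natural (median 7.03) and from 0 to 1.95 CPM in IVF (median 0.318). Rassf4 ran from 1.49 to 44.1 CPM in Natural (median 7.19) and from 0 to 0.632 CPM in IVF (median 0). Natural and IVF oocytes did not overlap for these genes, and the highest Rassf4 value, from Natural replicate 9, stood far above the 13.6 CPM of the next oocyte.

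With an on-off pattern defined as no overlap between the groups, a mean at least 10-fold lower in one of them and a mean of at least 5 CPM in the other, 8 of the 10 genes passed and Arid5b and AA465934 did not. Over the 7759 genes that reached 5 CPM, 0.116% passed with the higher level in IVF and 0.103% with the higher level in Natural, and since this contrast chose the members nothing is read from their count. An edgeR fit over the single oocytes, whose donors are unknown, called 0.951% of 10940 genes, and no result here rests on it. Natural replicates 6 and 9 stood apart in the whole table, with summed CPM of 10 oocyte markers of 2767 and 4818 against 33331 to 78822 in the other Natural oocytes and 35280 to 70337 in IVF. The same 8 genes passed without these 2 oocytes. The summed CPM of 12 cumulus and granulosa markers was 6.26 to 142 in Natural and 34.9 to 189 in IVF, where 12-week cumulus libraries held 1600 to 2843, and the part of that difference in these values was not tested.

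**Figure D1:**
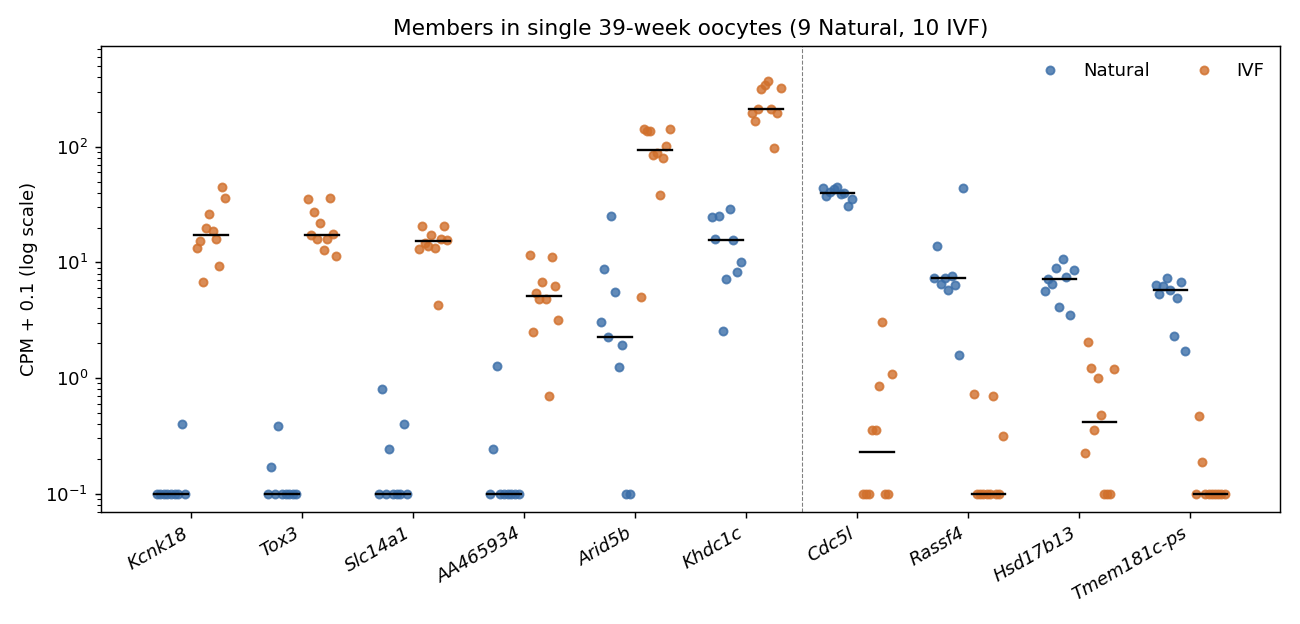
CPM plus 0.1 on a log axis for each of the 10 genes in 9 Natural (blue) and 10 IVF (orange) single oocytes at 39 weeks, 1 point an oocyte, with black bars at the medians. Genes left of the dashed line were higher in IVF and genes right of it higher in Natural, and points of the groups mix only for Arid5b and AA465934.

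In the 12-week oocytes the same genes were low or high by collection set, and low and high sets occurred in both groups. A set was called low for a gene when its median CPM lay at least 10-fold under the highest set median, and high otherwise, a rule chosen after these values had been seen. Each of the 10 genes had at least 1 low and 1 high set among the Natural sets and likewise among the IVF sets. For Rassf4 this rested on low levels, with a median of 0.381 CPM in 92_5, its only high Natural set. There 4 of 7 oocytes had at most 3 counts, and its only low IVF set, 126_3, had a median of 0.148 CPM. Among the 8 genes that reached a set median of 5 CPM, this held for 8, against 1.77% of the 8197 genes of the whole table that did so. The 10 genes had 10 different arrangements of low and high sets. Some of this rested on 1 set, as in IVF 126_4 was the only low set of Tox3 and the only high set of Tmem181c-ps. In Natural 35_1 was the only low set of Hsd17b13.

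Kcnk18 was high in sets 35_1 and 92_4 of the Natural group and in 126_3, 126_4 and 127_2 of the IVF group, with set medians of 24.6 to 53.7 CPM. In the remaining 5 sets 33 of 36 oocytes had at most 3 counts. The lowest of 40 oocytes in high sets, at 9.81 CPM, lay above the highest in low sets, at 2.41 CPM.

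Slc14a1 was high in the Natural sets 35_3 and 92_4 and in the IVF sets 126_2, 126_3 and 127_3, with medians of 12.7 to 32.0 CPM and single oocytes of 6.74 to 62.0 CPM. The highest of 36 oocytes in its 5 low sets reached 1.03 CPM. Kcnk18 and Slc14a1 were thus both high in 92_4 and 126_3, and elsewhere only one or neither was.

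Arid5b was low in 35_1 and 92_5 and in 126_3 and 127_3, where set medians lay between 0.980 and 2.79 CPM and no oocyte passed 5.64 CPM. In the other 6 sets its medians were 57.5 to 98.0 CPM and no oocyte was under 37.8 CPM. Its residual level was therefore low but rarely 0, since 5 of the 31 oocytes of low sets had at most 3 counts.

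Khdc1c also kept a low level instead of vanishing. Its set medians were 438 to 637 CPM in 35_1, 35_3, 126_2 and 127_3 and 14.0 to 21.7 CPM in the remaining 6 sets. Single oocytes spanned 238 to 1183 CPM in the former and at most 81.5 CPM in the latter. Khdc1b, the copy that differs at 7 of 183 exon bases, had set medians of 10390 to 19961 CPM. On the log2 scale these had a correlation of 0.82 with the set medians of Khdc1c, given as a description. Whether reads of Khdc1b contribute to the Khdc1c levels was not tested.

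Cdc5l was high in 92_3 and 92_5 and in 126_3, 126_4 and 127_3, with set medians of 51.4 to 81.6 CPM. In the 5 low sets the medians were 0 to 0.769 CPM and 24 of 40 oocytes had at most 3 counts. One oocyte of 92_5 at 10.6 CPM lay under the highest oocyte of the low sets, which had 11.2 CPM and belonged to 126_2. The remaining 35 oocytes of high sets lay above every oocyte of low sets.

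Tmem181c-ps was high in 3 sets, 35_1, 35_3 and 126_4, with medians of 4.81 to 6.67 CPM. All 52 oocytes of the 7 low sets had at most 3 counts, and no oocyte of the high sets fell under 1.52 CPM. Hsd17b13 was low in 35_1, 126_3 and 126_4, with medians of 0 to 0.675 CPM, and had medians of 3.84 to 13.8 CPM in the other 7 sets. Here 4 oocytes of high sets lay at or under the highest oocyte of low sets, which reached 3.65 CPM.

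Tox3 had 0 counts in all 24 oocytes of 35_1, 92_4 and 126_4. Over their summed counts, without the TMM correction, this allows up to 0.0240 CPM. In the other 7 sets its medians were 3.82 to 16.2 CPM, and 3 of 52 oocytes there had at most 3 counts. AA465934 was high in 92_3, 92_4 and 92_5 and in 126_2 and 127_3, with medians of 3.06 to 4.54 CPM against 0 CPM in each low set. At this level 5 of its 36 oocytes in high sets lay under the highest oocyte of low sets.

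Rassf4 departed from the pattern. Its highest set median was 3.56 CPM, in 126_2, followed by 3.33 CPM in 127_3, and the other 8 sets had medians of 0 to 0.731 CPM. Single oocytes in sets called high ranged from 0 to 11.4 CPM and overlapped those in sets called low. The level of 7.19 CPM at the median of the 39-week Natural oocytes was not reached by any 12-week set median.

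**Figure D2:**
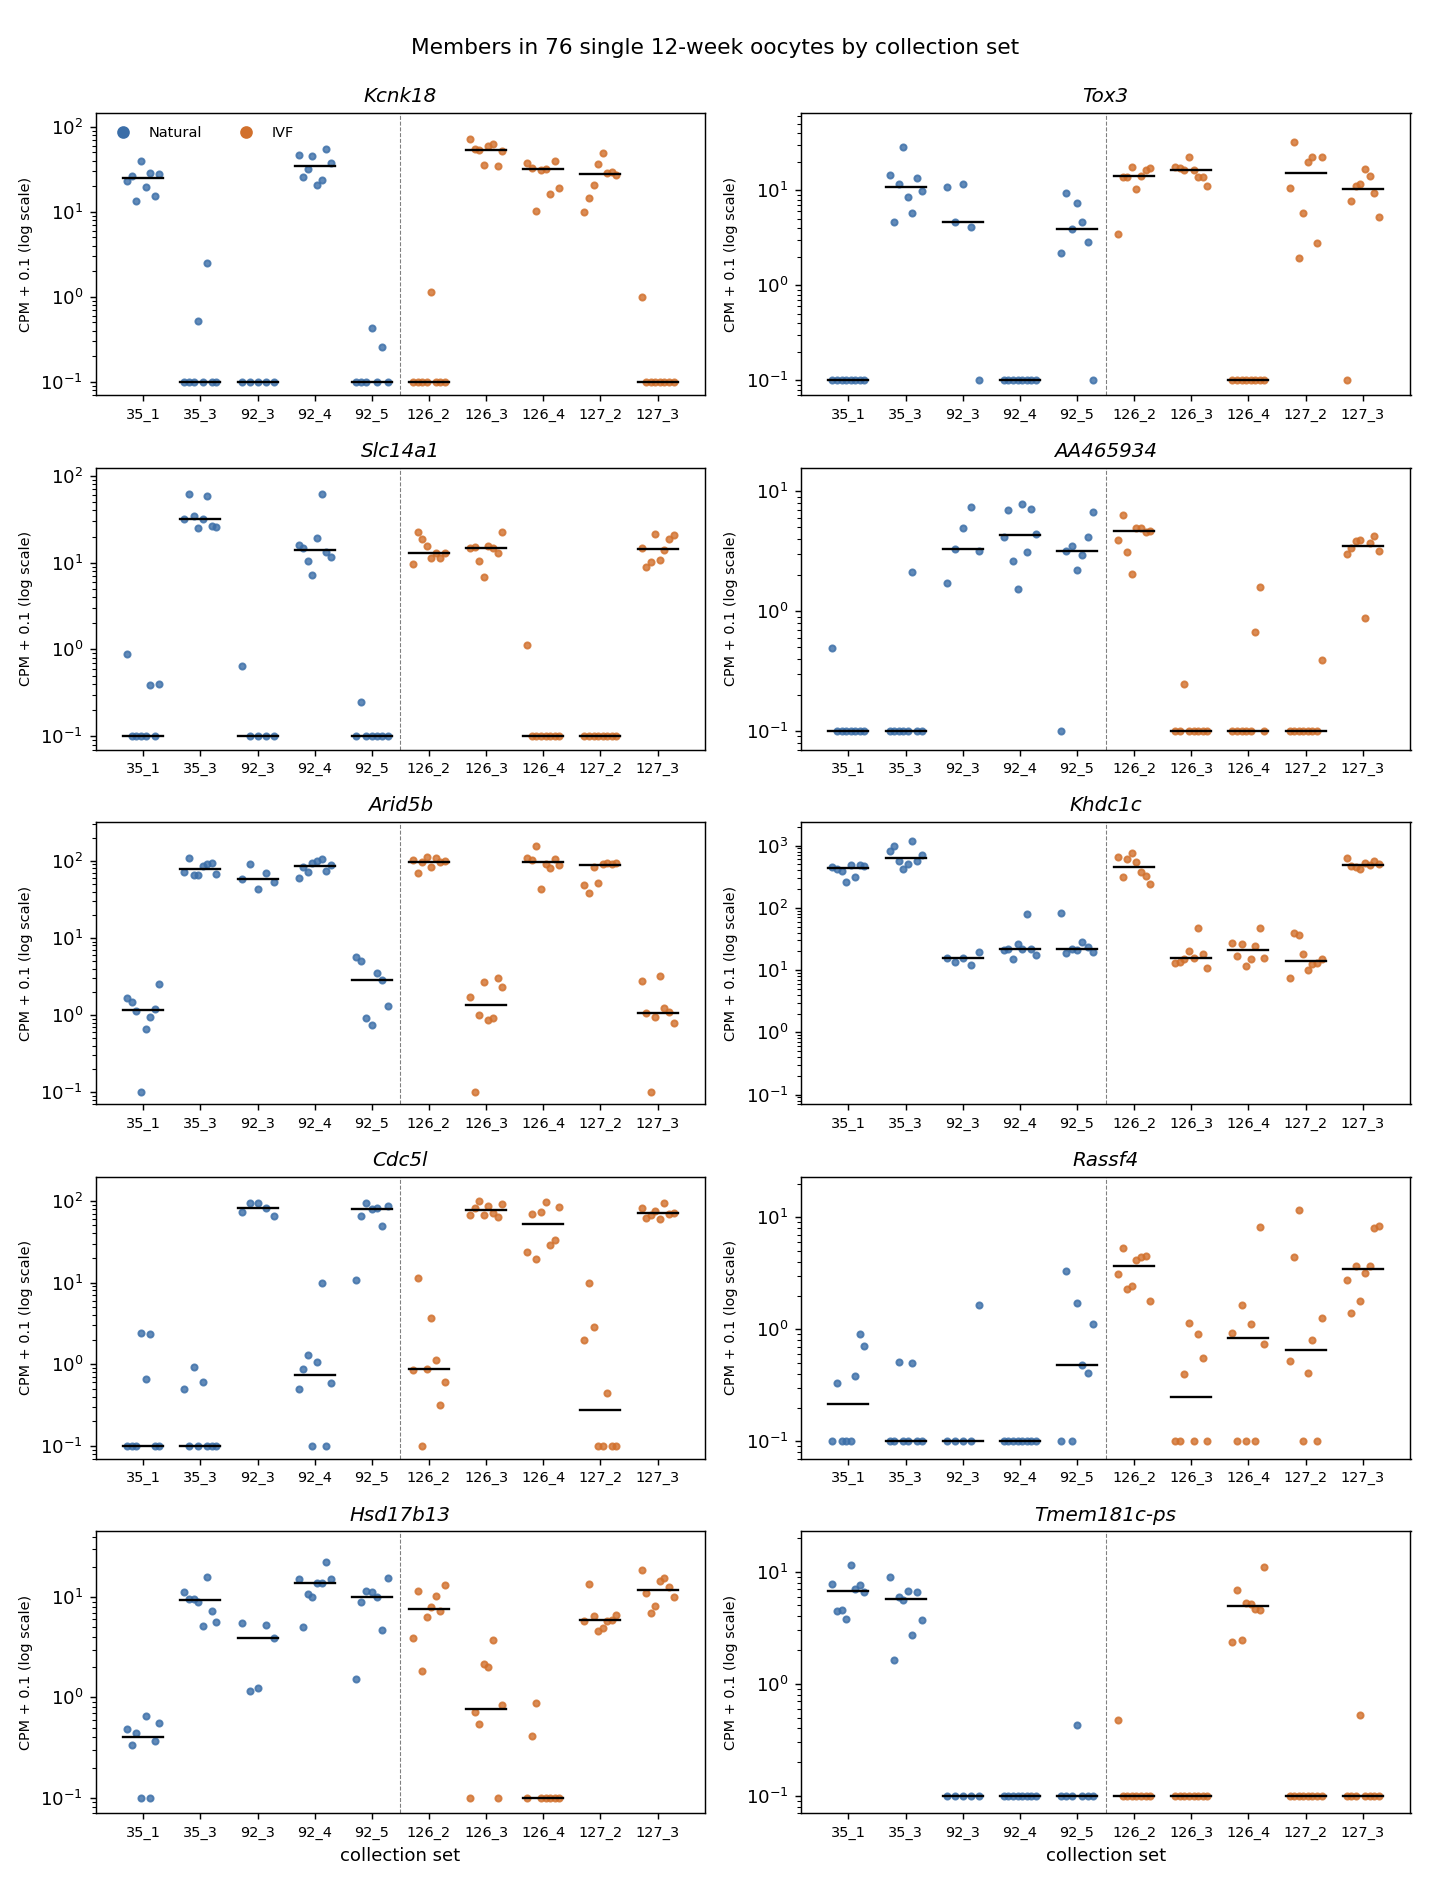
CPM plus 0.1 on a log axis in 76 single 12-week oocytes for the 10 genes, by collection set, with Natural sets in blue, IVF sets in orange, 1 point an oocyte and black bars at set medians. In every panel except that of Rassf4 whole sets sit high or low on both sides of the dashed line that parts the groups.

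Oocytes of a set went together. Of the variation of log2(CPM + 1) within the groups, taken as a sum of squares, the part between sets was 96.6% for Kcnk18, 96.5% for Arid5b, 96.1% for Slc14a1, 94.6% for Khdc1c, 93.1% for Tmem181c-ps and 91.0% for Cdc5l. It was 84.2% for Hsd17b13, 82.8% for AA465934, 76.9% for Tox3 and 41.0% for Rassf4. Over the 8197 genes with a set median of at least 5 CPM the median share was 19.1%, with quartiles of 14.1% and 25.4%. What a set shares, such as a donor, a day or handling, is not given, and these cannot be told apart. By first field, the Natural names fall into 35_1 and 35_3 against 92_3, 92_4 and 92_5. The IVF names fall into 126_2, 126_3 and 126_4 against 127_2 and 127_3, and the meaning of that field is not given either. Khdc1c and Tmem181c-ps were high in 35_1 and 35_3 and low in the other Natural sets. AA465934 was the reverse, while no other member followed that field in Natural, nor any in IVF.

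No set was low or high for all members. The number of members called high in a set ran from 3 in 35_1 to 7 in 126_2 and 127_3. Set by set, 3 to 7 of the 10 genes were in the state that the 39-week Natural oocytes showed, and 3 to 7 in that of the 39-week IVF oocytes. Both of these extremes occurred in each group, since 92_5 and 126_4 matched the 39-week Natural state for 7 genes and 92_4 and 126_2 matched the 39-week IVF state for 7. In 92_5 and 126_4 the 7 include Rassf4, called high there at set medians of only 0.381 and 0.731 CPM.

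Across the 5 Natural and 5 IVF sets, with counts summed per set, edgeR's quasi-likelihood test with Benjamini-Hochberg adjustment called 0 of the 9 members tested, against 0.0277% of 14444 genes. Of these 1, Rassf4, had an unadjusted p under 0.05, as had 963 genes of the table, and DESeq2 called 0, against 55 of 17243 genes. Tmem181c-ps was not tested because too few sets passed the filter on low counts. The mean of the set means of Kcnk18 was 12.0 ± 16.8 CPM in Natural and 21.4 ± 22.0 CPM in IVF (SD, n = 5 sets), a log2 fold change of 0.80 with a standard error of 1.53 (edgeR adjusted p = 0.959). Cdc5l, at 30.0 ± 40.3 and 41.7 ± 37.4 CPM, gave 0.45 with a standard error of 1.38 (edgeR adjusted p = 0.975).

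With standard errors of this size a difference of several fold between the groups would not have been detected. The test also took the 5 sets of a group as independent, which sets sharing the first field of their name may not be. Rassf4 had the largest fitted difference, with 0.317 ± 0.365 CPM in Natural and 2.31 ± 1.47 CPM in IVF (SD, n = 5 sets), a log2 fold change of 2.66 with a standard error of 0.89 that did not pass (edgeR adjusted p = 0.699). In the 39-week oocytes Rassf4 lay the other way round. As an on-off pattern between the groups of sets, 0 members passed, against 0.0393% of the genes of the table.

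Cumulus cells surround the oocyte and are collected with it, and 6 of the 10 cumulus libraries carried the name of an oocyte set. Cdc5l was present in all of them, at 10.6 to 17.8 CPM, both where the oocytes of the set were high (92_5, 126_3, 126_4) and where they were low (35_3, 126_2, 127_2). Arid5b likewise lay at 8.63 to 16.8 CPM in these 6 libraries, with 12.1 CPM in 92_5 and 16.8 CPM in 126_3, whose oocytes were low. The library named 126_2 was labelled Natural whereas the oocytes of that name were labelled IVF, so its tie to that set or its group label is uncertain.

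Tmem181c-ps and AA465934 varied among these libraries. Tmem181c-ps had 3.19 CPM (15 counts) in 126_4 and 0.883 CPM (5 counts) in 35_3, the sets with high oocytes, 0.830 CPM (4 counts) in 126_2, and 0 counts in 92_5, 126_3 and 127_2. AA465934 had 3.73 CPM (18 counts) in 126_2 and 3.52 CPM (18 counts) in 92_5, both with high oocytes. It had 1.77 CPM (10 counts) in 35_3, 1.27 CPM (6 counts) in 126_4 and 0 counts in 126_3 and 127_2, all with low oocytes. The IVF cumulus libraries not named after a set held 15 and 41 counts of Tmem181c-ps and 48 and 55 counts of AA465934. At such counts a library of 0 cannot be separated from one of 3 counts.

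Tox3 and Slc14a1 had 0 counts in all 10 cumulus libraries, and Kcnk18, Khdc1c and Hsd17b13 had at most 6, 4 and 2 counts. The oocyte levels of these 5 genes were thus measured beside cumulus cells in which they were absent or close to it. Between 5 Natural and 5 IVF cumulus libraries edgeR called 0 of the 4 members tested (Cdc5l, Rassf4, Arid5b and AA465934), against 0.00973% of 10280 genes, with 0 at an unadjusted p under 0.05 and 0 by DESeq2. The Rassf4 log2 fold change was -0.59 with a standard error of 0.37 (edgeR adjusted p = 0.868). As an on-off pattern 0 members passed in cumulus cells, against 0.0116%.

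**Figure D3:**
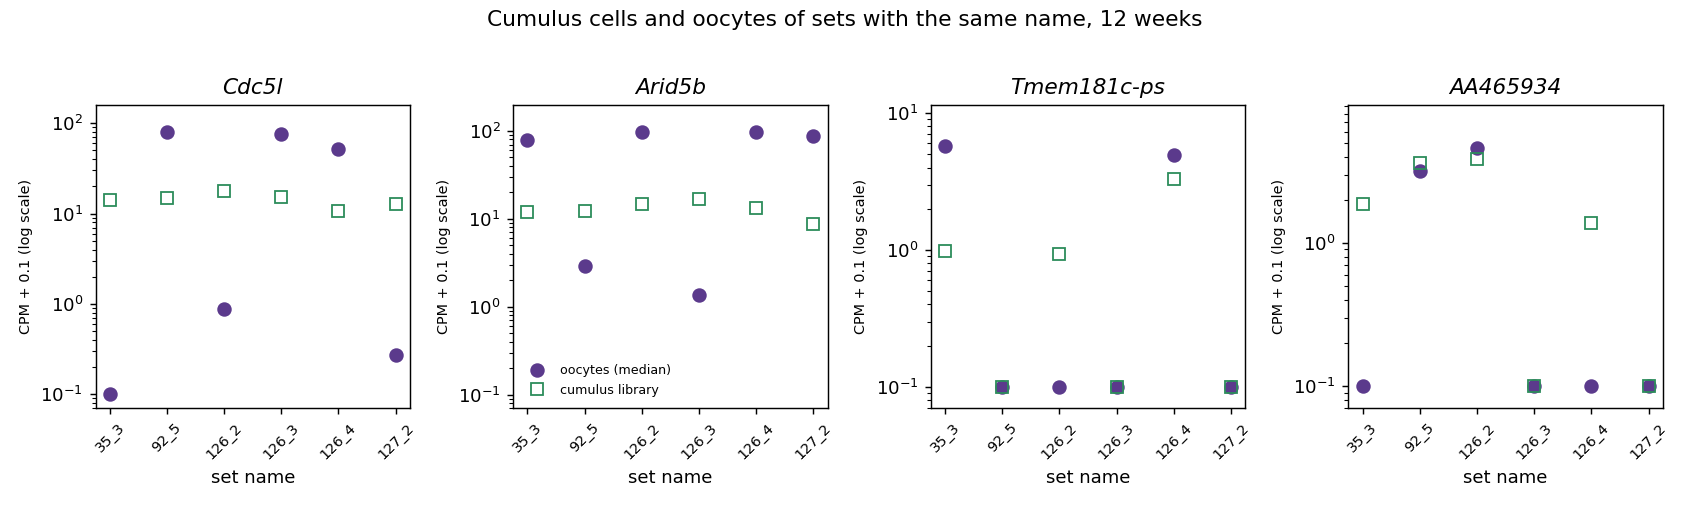
CPM plus 0.1 on a log axis for 4 genes in the 6 cumulus libraries named after an oocyte set (open squares) and the median of the oocytes of that set (filled circles). Cdc5l and Arid5b squares stay between 8.63 and 17.8 CPM while the circles move between high and low, and Tmem181c-ps and AA465934 squares spread down to 0.

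Whole ovaries were not used to choose the genes, so they were tested. At E18.5 edgeR called 0 of the 8 members tested, against 5.43% of 16415 genes, and DESeq2 called 0, against 1856 of 17747 genes. An unadjusted p under 0.05 was found for 2 members (Slc14a1 and AA465934) and for 3960 genes of the table, a like share. Tmem181c-ps nonetheless varied there from library to library. It had 0.339, 1.26, 24.3 and 0.205 CPM in Natural replicates 1 to 4, and 0.858 to 17.6 CPM in the 6 IVF ovaries (median 11.4). One Natural ovary was thus above all others and the other 3 were low, while 4 IVF ovaries were high and 2 were low, with a log2 fold change of 0.57 and a standard error of 1.03 (edgeR adjusted p = 0.777).

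The 12-week ovaries separated by group for Tmem181c-ps. It had 19.4, 17.0, 14.8 and 10.6 CPM in the 4 Natural ovaries and 0.825, 1.03, 0.204, 0.327 and 0.825 CPM in the 5 IVF ovaries. Every Natural ovary lay at least 10-fold above every IVF ovary. The log2 fold change was -4.36 with a standard error of 0.37 (edgeR adjusted p = 0.00590), and Tmem181c-ps was the only gene of 17628 tested that was called, a background of 0.00567%.

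As an on-off pattern, 1 member passed at 12 weeks, against 0.0463% of the genes that reached 5 CPM. IVF replicates 3 and 4 of this age were shallow libraries, and replicate 4 held 2839022 counts. Leaving out any 1 of the 9 ovaries kept the call, at adjusted p values of 0.00205 to 0.0466 by edgeR. The summed CPM of 8 markers of oviduct and other epithelia also parted these groups, with 3491 to 8044 in Natural and 90.4 to 3077 in IVF, and its part in the Tmem181c-ps difference was not tested. In the 12-week oocyte sets Tmem181c-ps was high in 2 Natural sets and 1 IVF set.

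At 39 weeks Tmem181c-ps was again mixed. The Natural ovaries had 1.04, 0.606, 4.81, 0.576 and 8.63 CPM, and the IVF ovaries 8.04, 0.203, 9.98, 0.416 and 0.768 CPM. The highest of these, IVF replicate 3, had an oviduct and epithelium marker sum of 97.7, and IVF replicate 1 one of 8562. High and low ovaries occurred in both groups (log2 fold change 0.31, standard error 1.13, edgeR adjusted p = 0.901). The change in the effect of IVF between 12 and 39 weeks, tested as an interaction, was 4.70 on the log2 scale with a standard error of 1.38 and did not pass (edgeR adjusted p = 0.107). Of the 8 members tested for it edgeR called 0, against 0.0157% of 19066 genes, while 3 members had an unadjusted p under 0.05, as had 3839 genes of the table. DESeq2 called 2 members, Tmem181c-ps and Slc14a1, and 1104 of 18474 genes.

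AA465934 was the 1 member called in 39-week ovaries, against 0.262% of 17186 genes. The Natural ovaries had 1.24, 2.01, 2.08, 2.18 and 1.59 CPM and the IVF ovaries 2.90, 7.33, 6.98, 5.38 and 6.15 CPM, so that each IVF ovary lay above each Natural one, where 5.91% of the genes that reached 5 CPM had no overlap. The log2 fold change was 1.65 with a standard error of 0.28 (edgeR adjusted p = 0.0464). The call stood close to the threshold and was kept in 1 of 10 fits that left out a library, the fit without IVF replicate 1 (adjusted p = 0.0156), the others giving up to 0.129.

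In the younger ovaries the same transcript was variable. At 12 weeks AA465934 had 8.02, 1.80, 2.74 and 1.80 CPM in Natural and 3.96, 1.93, 20.7, 2.29 and 2.06 CPM in IVF, where replicate 3 stood alone. At E18.5 it had 8.13, 2.71, 1.78 and 3.49 CPM in Natural and 3.09 to 13.8 CPM in IVF (median 7.64), a log2 fold change of 1.08 with a standard error of 0.46 (edgeR adjusted p = 0.172). The on-off pattern was met by 0 members at E18.5, against 0.0542%, and by 0 at 39 weeks, against 0.00796%.

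The level of Slc14a1 differed most between single ovaries. It had 110, 54.1, 141 and 102 CPM in the 12-week Natural ovaries and 33.2, 60.8, 1.22, 37.7 and 27.2 CPM in IVF (log2 fold change -1.62, standard error 0.66, edgeR adjusted p = 0.307). At 39 weeks it had 5.24, 1.97, 1.19, 2.34 and 1.06 CPM in Natural and 139, 2.13, 1.37, 1.44 and 0.739 CPM in IVF. The single high ovary, IVF replicate 1, carried the positive fitted change of 3.64, which was -0.74 without it.

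Markers of the oviduct and other epithelia moved with Slc14a1. The summed CPM of the 8 markers was 8562 in that 39-week ovary and 52.2 to 224 in the other 9. At 12 weeks it was 90.4 in IVF replicate 3, where Slc14a1 was lowest, 619 to 3077 in the other IVF ovaries and 3491 to 8044 in the Natural ovaries. The part of these cells in the Slc14a1 values was not tested.

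Tox3 was high in the same 39-week ovary. It had 5.22, 4.45, 6.15 and 5.44 CPM in the 12-week Natural ovaries and 1.65, 3.39, 2.04, 3.27 and 3.07 CPM in IVF, short of a call although the groups did not overlap, as held for 6.66% of the genes that reached 5 CPM (log2 fold change -0.96, standard error 0.27, edgeR adjusted p = 0.181). In that 39-week ovary, IVF replicate 1, Tox3 had 8.97 CPM and the other 9 ovaries 0.756 to 2.61 CPM. The E18.5 ovaries were higher, at 6.56 to 19.2 CPM in Natural and 11.6 to 22.4 CPM in IVF.

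Genes that were on or off in oocytes could be level in the ovary. Cdc5l had 57.6 to 73.2 CPM at E18.5, 47.2 to 57.5 CPM at 12 weeks and 40.2 to 44.7 CPM at 39 weeks in Natural ovaries. IVF ovaries had 58.3 to 86.5, 43.2 to 60.9 and 41.8 to 49.6 CPM. The log2 fold changes of Cdc5l were 0.10, 0.05 and 0.08 with standard errors of 0.13, 0.11 and 0.07. Cdc5l was not called at any age (edgeR adjusted p = 0.684, 0.864 and 0.570).

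Arid5b was not called at any age either, with 82.6 to 155 CPM at E18.5, 48.5 to 86.8 CPM at 12 weeks and 75.0 to 115 CPM at 39 weeks over both groups. Rassf4 lay at 10.1 to 23.3 CPM at E18.5 and 15.7 to 30.1 CPM at 12 weeks. At 39 weeks it had 12.8, 29.1, 27.0, 17.8 and 18.8 CPM in Natural and 30.3, 31.7, 52.0, 25.3 and 31.6 CPM in IVF, a log2 fold change of 0.70 with a standard error of 0.25 that missed the threshold (edgeR adjusted p = 0.186).

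The oocyte genes Khdc1c, Kcnk18 and Hsd17b13 were low in ovaries. Khdc1c reached 7.20 CPM at 12 weeks, where both groups overlapped (1.19 to 4.75 CPM in Natural and 1.01 to 7.20 CPM in IVF), and at most 1.54 CPM at 39 weeks. Kcnk18 reached 5.65 CPM in 1 IVF ovary at E18.5 and stayed under 1 CPM in all adult ovaries. Hsd17b13 was at most 0.841 CPM in any ovary.

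**Figure D4:**
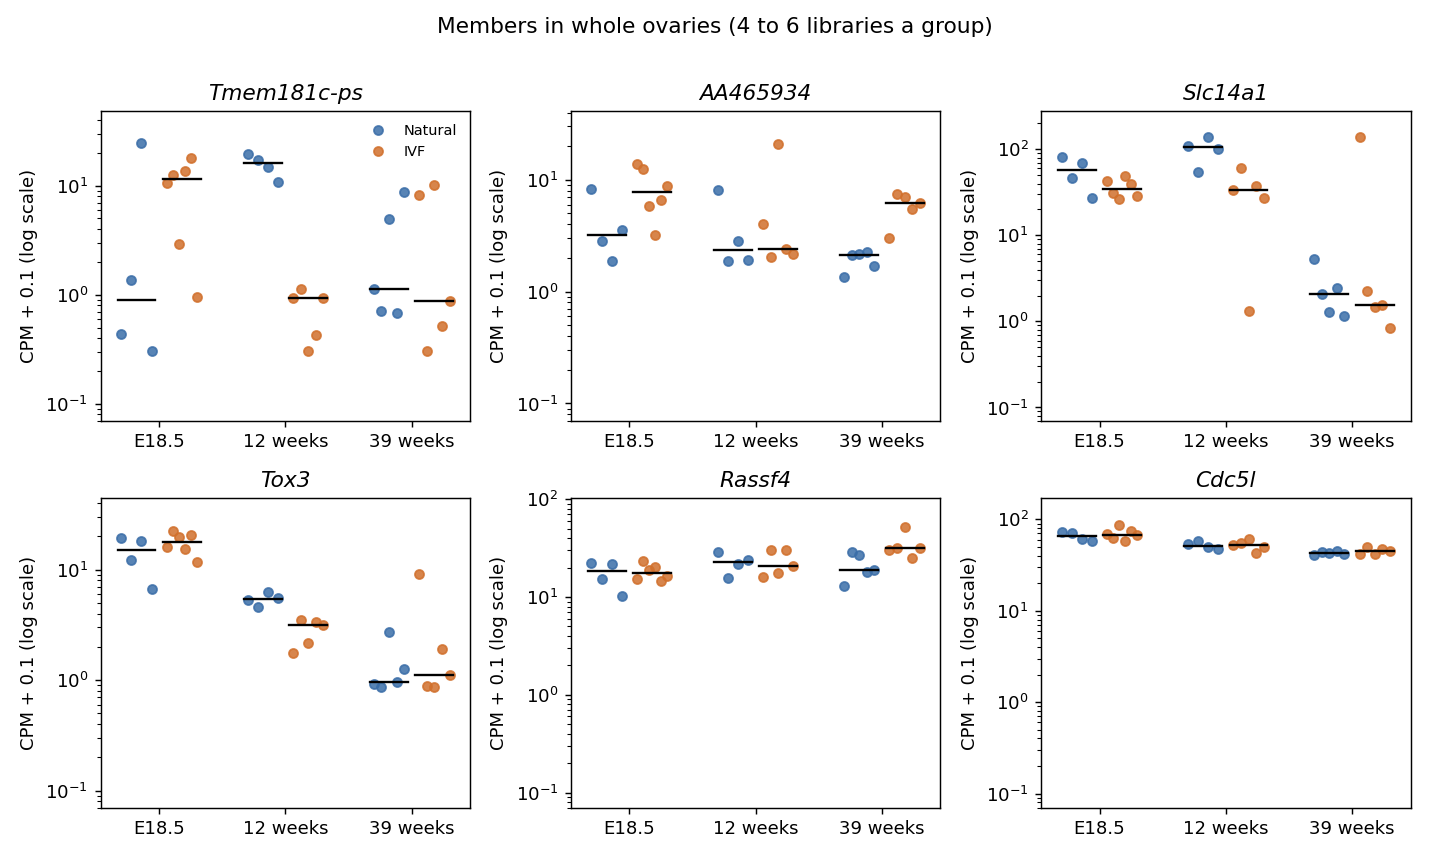
CPM plus 0.1 on a log axis for 6 of the genes in whole ovaries at E18.5, 12 and 39 weeks, with 1 point an ovary, Natural in blue, IVF in orange and black bars at medians. Tmem181c-ps parts the groups at 12 weeks and mixes them at the other ages, 1 IVF ovary at 39 weeks stands high for Slc14a1 and Tox3, and Cdc5l is level.

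In PGCs at E13.5 only Cdc5l and Arid5b had enough reads to be tested, and edgeR called 0 of them, with 0 at an unadjusted p under 0.05. This was also the number for the whole table, 0% of 12763 genes, of which 349 had an unadjusted p under 0.05, and DESeq2 also called 0. Cdc5l had 90.9 to 111 CPM in the 4 Natural and 86.9 to 111 CPM in the 5 IVF libraries. Arid5b had 24.8 to 127 CPM in Natural and 48.1 to 70.0 CPM in IVF. Tox3 was mixed at a low level, with 0 counts in 3 of 4 Natural libraries, 4.69 CPM in the other and 0.894 to 4.82 CPM in IVF. As an on-off pattern 0 members passed, against 0%.

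Of the 100 genes taken as the 5 nearest on each side, 18 reached a set median of 5 CPM in 12-week oocytes. Of these 1, Tmem181b-ps, was low and high in sets of both groups, against 1.77% of the 8197 genes of the whole table. Its set medians had a correlation of 0.97 with those of Tmem181c-ps on the log2 scale, a description over 10 sets and over transcripts that share most of their words. In the 39-week oocytes, the contrast that chose Tmem181c-ps, Tmem181b-ps had means of 13.9 CPM in Natural and 1.27 CPM in IVF, which is given as a description. Tmem72, a neighbour of Rassf4, had means of 94.7 CPM in Natural and 37.0 CPM in IVF there, the direction of Rassf4. Its 12-week set medians had a correlation of 0.69 with those of Rassf4, and these values too are a description.

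Of 79 paralogs and partners, 41 reached a set median of 5 CPM at 12 weeks. Tmem181b-ps alone was low and high in sets of both groups, against 1.77% of the 8197 genes of the whole table. For Cdc5l, 11 of the 15 Prp19 complex and related genes reached that level, and their highest set median was at most 3.47 times the lowest. Crnkl1, a spliceosome scaffold, ran from 180 to 349 CPM over the sets and Plrg1, a partner of Cdc5l in the complex, from 109 to 226 CPM.

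Khdc1a, the copy of Khdc1c with the identical exon, ran from 15.8 to 83.4 CPM over the sets, and its set medians had a correlation of 0.96 with those of Khdc1c over 10 sets, given as a description of genes that share words. In the 39-week oocytes Khdc1a had means of 15.4 CPM in Natural and 21.8 CPM in IVF. Khdc1c had means of 15.3 and 244 CPM there, and these values too are a description. Dppa5a, another KH-domain gene, ran from 2.83 to 21.0 CPM. Kcnk13, another two-pore potassium channel, ran from 42.2 to 79.4 CPM over the sets, and Arid1a, a subunit of a chromatin remodelling complex, from 222 to 279 CPM. Aqp9, a channel for water, glycerol and urea, ran from 49.9 to 73.2 CPM. Among lipid droplet genes Plin2, a coat protein of the droplet, varied most, from 0.735 to 9.40 CPM.

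Of these 79 genes edgeR called 0 of 53 tested between the 12-week sets (4 at an unadjusted p under 0.05), 0 of 69 in 12-week ovaries (14), 0 of 64 in 39-week ovaries (11), 0 of 44 in cumulus cells (3) and 0 of 51 in PGCs (1). Over the whole tables the genes at an unadjusted p under 0.05 were 963 of 14444 for the sets, 2544 of 17628 and 3303 of 17186 for the ovaries of 12 and 39 weeks, and 349 of 12763 for PGCs. In E18.5 ovaries edgeR called 1 higher, Arid4b, and 4 lower among 60, where 5.43% of all genes were called, and 17 had an unadjusted p under 0.05, as had 3960 of all 16415 genes. The lower ones included the KH-domain genes Khdc3, Ooep and Dppa5a, with log2 fold changes of -3.33, -2.66 and -1.95. The summed CPM of 10 oocyte markers in these fetal ovaries was 215 to 693 in Natural and 46.5 to 266 in IVF, and its part in those changes was not tested.

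Over the 76 single oocytes, the 3 genes most like each member were listed by Pearson's correlation of log2(CPM + 1) with 7368 or 7369 genes of at least 5 CPM on average. For Tox3 all 3 lay on chromosome 8 with it: Lzts1 (0.75), Slc7a2 (0.71) and Zfp961 (0.70). For Khdc1c the first was its copy Khdc1a (0.83), and for Kcnk18 the first was Got1 (0.80), which lies with it on chromosome 19. Of the 27 listed genes with a position, 7 lay on the chromosome of their member, where the share of ranked genes on that chromosome averaged 5.16%. Of these 7, 3 were the genes of Tox3 and 1 was Khdc1a, whose reads can be shared with Khdc1c. Slc14a1, Cdc5l, Tmem181c-ps, Arid5b and Hsd17b13 had 0 such genes.

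Of the remaining members Rassf4 was closest to Gm20362 (0.64), which lies with it on chromosome 6, and the closest genes of Slc14a1 and AA465934 had no position in the table used. Arid5b was closest to Manba (0.73) on chromosome 3, Hsd17b13 to 7420700N18Rik (0.76) on chromosome 8, Cdc5l to Ccdc28a (0.62) on chromosome 10 and Tmem181c-ps to Agbl2 (0.72) on chromosome 2. Some of these likenesses did not carry over to the older oocytes. Agbl2, like Tmem181c-ps in the 12-week sets, averaged 0.841 CPM in Natural and 43.5 CPM in IVF at 39 weeks, the reverse of Tmem181c-ps, whereas Lzts1 went with Tox3 (2.08 and 42.4 CPM). The correlations rest on oocytes that share sets and libraries and are given as descriptions.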

How the data were processed

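The authors deposited unnormalized counts for 35976 gene names in each of 7 tables, 25 of which are bare numbers in the ovary tables. The submitters' processing notes name Trimmomatic (0.32), STAR (2.3.0e), featureCounts (1.5.0) and mm10, and the paper names trimgalore, STAR and featureCounts for low-input libraries. Oocytes, cumulus cells and PGCs were prepared by a modified SMART-Seq protocol, and ovaries with a stranded mRNA kit. All sample columns were used, and no 2 libraries were identical. Total counts were 18079970 to 38751638 in 39-week ovaries and 839781 to 10879166 in 12-week oocytes.

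Comparisons of IVF with Natural used edgeR (4.0.16) in R (4.3.3) with TMM scaling, its default filter, quasi-likelihood tests and Benjamini-Hochberg adjusted p below 0.05 over all genes tested. Oocytes were summed per collection set, and the cumulus fit held the naming style of the libraries as a covariate. The labels do not tie libraries to litters, so p values measure the spread between these samples. The tests were tested on simulated data. DESeq2 (1.42.0) and limma (3.58.1) served as alternatives.

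The members and gene lists were chosen with earlier results of these data known. The named genes were the members, fixed lists of paralogs and partners, the 5 genes on either side, and the 3 genes most like each member with at least 1 CPM in at least 20 oocytes. The share of 50-base words was counted over all GENCODE transcripts of a gene. The division of sets into low and high was chosen after seeing the data. Gene positions and exon sequences came from GENCODE vM21 (GRCm38), and gene order from RefSeq (GRCm38.p6). Cumulus cells at 39 weeks were not analysed here.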

Additional observations from a re-analysis of the deposited data

Results flagged for a closer look

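Over 65 groups of 4 to 10 libraries in which a member reached 5 CPM, 10 held a library far from the rest by Dixon's gap at the 95% level, where chance would mark about 1 group in 20 of groups taken without regard to their values. Groups entered through their highest library, so that rate is no yardstick for the 10. In whole ovaries these were the E18.5 Natural replicate 3 for Tmem181c-ps (24.3 CPM), the 12-week Natural replicate 1 (8.02 CPM) and IVF replicate 3 (20.7 CPM) for AA465934, and the 39-week IVF replicate 1 for Slc14a1 (139 CPM) and Tox3 (8.97 CPM). The 39-week IVF replicate 3 stood high for Rassf4 (52.0 CPM).

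In single 39-week oocytes the Natural replicate 9 stood high for Rassf4 (44.1 CPM), the Natural replicate 4 high for Arid5b (25.0 CPM) and the IVF replicate 7 low for Slc14a1 (4.16 CPM). In PGCs the IVF replicate 3 stood high for Arid5b (70.0 CPM). Natural replicate 9 also had the second lowest sum of oocyte markers of the 19 oocytes, and IVF replicate 7 the fewest counts, and the part of either in these values was not tested.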

How the results depend on the processing

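No member was called in E18.5 ovaries under DESeq2, its size factors, no filter or the replicate block, and leaving out 1 library gave 0 to 1 called (AA465934 without Natural replicate 1, Tmem181c-ps without Natural replicate 3 and Slc14a1 without Natural replicate 4). The fits that called these members called 1973 of 16816, 558 of 16780 and 396 of 16723 genes of the table, in that order. In 12-week ovaries DESeq2 called 2, adding Tox3, and 645 of 17988 genes of the table. Leaving out 1 library there gave 1 member each time. In 39-week ovaries no filter gave 0 called, and leaving out 1 library gave 0 to 1. The 1 came from the fit without IVF replicate 1, which called 123 of 17570 genes of the table. For the interaction DESeq2 called 2 (Tmem181c-ps and Slc14a1), and leaving out 1 library gave 0. The Slc14a1 change in 39-week ovaries ran from -0.74 (without IVF replicate 1) to 4.16 (without Natural replicate 1) with 1 library left out. In PGCs, cumulus cells and the 12-week sets no alternative called a member. The causes were not tested.

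With the replicate number as a replicate block, 0 members were called in 12-week ovaries (Tmem181c-ps, log2 fold change -4.68, edgeR adjusted p = 0.231) and 0 in 39-week ovaries. The numbers were not taken as pairs, since the correlations of same-numbered ovaries ran from -0.36 to 0.25 at 12 weeks and from -0.01 to 0.40 at 39 weeks.

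With a 5-fold difference and 1 CPM in place of 10-fold and 5 CPM, on-off genes numbered 34 in fetal ovaries, 52 in ovaries of 12 weeks, 20 in ovaries of 39 weeks, 37 in PGCs, 16 between 12-week sets and 7 in cumulus cells, against 7, 6, 1, 0, 3 and 1. For 39-week oocytes 7 members passed on raw library sizes, where Tmem181c-ps fell out. Leaving out oocytes or sets was chosen after seeing the data. Without the 10 12-week oocytes of low oocyte markers 8 members were low and high in sets of both groups. Those oocytes came from 35_3, 92_4, 92_5, 126_4 and 127_2. Without 1 set 6 to 8 members were low and high in both groups. It was 6 without 126_4, where Tox3 and Tmem181c-ps fell out, and 7 without 35_1, where Hsd17b13 fell out.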
